A study of Homo sapiens with 7 samples.

Results

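The GATA factor genes GATA2, GATA3, GATA4, GATA5 and GATA6, 5 of the 20163 protein-coding genes examined, were followed through H3K27ac HiChIP loop lists of 3 human cancer cell lines. HiChIP joins DNA fragments that lie close together in the nucleus and keeps those carrying a chosen protein or mark, here acetylation of lysine 27 of histone H3, which is found at active promoters and enhancers. A loop is a pair of different anchors on a chromosome, and its value is the count of read pairs that join them. The members' loops are those with an anchor over a 500 bp window centred on any annotated start site of the gene, 18 of 163530 loops in Ishikawa, 73 of 42027 in T-47D and 35 of 149226 in LNCaP. The segment of chromosome 10 from 8 to 10 Mb, which holds GATA3 and the gene-poor DNA beyond it, was examined as well.

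Ishikawa is an endometrial adenocarcinoma line, T-47D a breast ductal carcinoma line and LNCaP a prostate carcinoma line. Of 7 samples, 4 were Ishikawa, 2 given the vehicle DMSO and 2 given 10 nM 17β-estradiol for 1 h. T-47D had 1 sample and LNCaP had 2, with no treatment in the labels. Each line was deposited as 1 combined list, so no value has a replicate error and no test between lines could be made. Values are given with exact 95% Poisson intervals, which cover counting error only. Shares are read pairs per 100000 read pairs of the list, with totals of 1040329 for Ishikawa, 351260 for T-47D and 1805322 for LNCaP. Loops under 3 read pairs are not listed, so 0 means that no loop reached that count in the list, or in any part of the Ishikawa list. Unlisted loops may still hold read pairs, so a ratio against a gene at 0, for which 3 read pairs were set in, is nominal and not a lower bound. Enzyme (DpnII for Ishikawa, MboI for the other lines), sonication, read length and depth differ between Ishikawa and the other lines and cannot be told apart from the cell line.

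GATA factors are zinc finger transcription factors that bind DNA around the letters GATA. GATA2 and GATA3 belong to the branch best known from blood cell formation, and GATA4, GATA5 and GATA6 to the branch best known from heart and endoderm. GATA3 is also a factor of luminal breast epithelium, where it works beside FOXA1 and the estrogen receptor, and GATA2 is also expressed in prostate epithelium. A promoter looped to many distant H3K27ac anchors is a common sight at genes that define a cell type.

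The members differed in the lists where they looped and in their read pairs there. GATA3 looped in T-47D, with 1063 read pairs (95% interval 1000 to 1129). It had 7 (2.81 to 14.4) in Ishikawa, and LNCaP had none. GATA2 looped in all 3 lists, with 1039 read pairs (977 to 1104) in LNCaP and 41 (29.4 to 55.6) in each of Ishikawa and T-47D, 3.94 and 11.7 per 100000. These equal counts come from lists of unequal depth, and the T-47D share was 2.96-fold the Ishikawa share (1.87 to 4.68). Of 14165 genes with loops in either list, 6166 had a higher ratio, so this one is ordinary for these 2 lists. GATA6 had 36 read pairs (25.2 to 49.8) in Ishikawa, 6 (2.20 to 13.1) in T-47D and none in LNCaP. Thinned to the depth of the T-47D list, with loops under 3 read pairs dropped, GATA6 in Ishikawa had an expected 6.01 read pairs, about the T-47D count. GATA2 in Ishikawa, thinned in the same way, had an expected 5.21 read pairs, against 41 in T-47D. GATA5 had 17 (9.90 to 27.2) in T-47D and 0 in the other lists, and GATA4 had 0 in every list. Among protein-coding genes, GATA3 ranked 6 by promoter read pairs in T-47D and GATA2 ranked 215 in LNCaP.

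**Figure D1:**
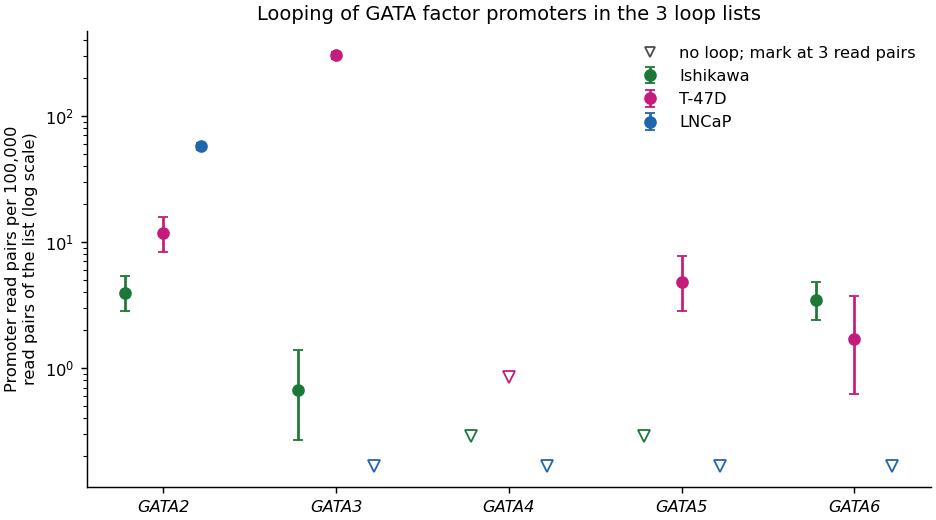
Promoter read pairs of each GATA gene per 100000 read pairs of the list, on a log scale, with exact 95% Poisson intervals as bars; open triangles stand for no loop and are drawn at the share of 3 read pairs. GATA3 in T-47D (303 per 100000) and GATA2 in LNCaP (57.6 per 100000) lie above every other point.

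As a share of the list, GATA3 stood at 303 per 100000 in T-47D (285 to 321) and at 0.673 in Ishikawa (0.271 to 1.39). The ratio of the T-47D share to the Ishikawa share was 450 (95% interval 218 to 1121), and 15 of 14165 genes had a higher ratio. With LNCaP set at 3 read pairs the nominal ratio was 1821, and 2 of 12708 genes had a higher ratio. Spans of 5 kb to 2 Mb, the range of the LNCaP list, left 932 of the 1063 T-47D read pairs. For GATA5 in T-47D the nominal ratio was 16.8 to Ishikawa and 29.1 to LNCaP, and for GATA6 in T-47D it was 10.3 to LNCaP. Thus 2 of 4 members with loops in either list were 4-fold or more higher in T-47D than in Ishikawa, where 39% of genes with loops in either list were, and 3 of 4 were so against LNCaP, where 20% of such genes were.

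For GATA2 the LNCaP share, 57.6 per 100000 (54.1 to 61.2), was 14.6-fold that of Ishikawa (10.7 to 20.5) and 4.93-fold that of T-47D (3.61 to 6.91). It was the 1 member that was 4-fold or more higher in LNCaP than in Ishikawa, of 3 with loops in either list, and the 1 of 4 that was so against T-47D. Over all genes with loops in either list these calls were made for 36.6% and 12%, so GATA2 exceeded a threshold that many genes passed. The ratio to T-47D has an interval that reaches below 4. The nominal ratio of Ishikawa to LNCaP was 20.8 for GATA6 and 4.05 for GATA3, so 2 of 3 members passed, against 24.6% of genes. For GATA3 this rests on 1 loop of 7 read pairs, which was lost when an anchor had to cover a start base. GATA6 in Ishikawa was 2.03-fold its T-47D share, with an interval from 0.845 to 5.88 that includes no difference, and 0 of 4 members passed 4-fold in that direction, against 12.4% of genes.

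GATA3 (ENSG00000107485.18_13, chromosome 10, 8087341 to 8117161, plus strand, GRCh37) has 5 annotated start sites. In T-47D, 2 anchors lay over them. The first, chr10:8091348-8098536, covered 3 start sites with the canonical one among them, and the second, chr10:8099042-8102049, covered 1. The first took part in 31 loops with 687 read pairs and the second in 28 loops with 590 read pairs. They were joined to each other by 214 read pairs (the strongest GATA3 loop), and 25 of the 32 other partners were joined to both. The single Ishikawa loop came from an anchor, chr10:8082016-8087120, that overlapped the window of the most upstream start site by 30 bp without reaching the site itself, and it ran to an anchor over an exon of TAF3, 37.5 kb upstream. No anchor of the LNCaP list lay closer than 31.6 kb to any GATA3 start site. Anchors were called separately for each line, so a missing anchor and a missing contact cannot be told apart.

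The partners of the GATA3 promoter in T-47D were few near the gene and many far from it. An anchor in the GATA3 gene itself, chr10:8103302-8105410, 7.71 kb downstream of the canonical start and within an intron, shared 192 read pairs (2 loops) with the promoter anchors. An intergenic anchor at chr10:9238406-9247314, centred 1146 kb downstream, shared 219 read pairs, 137 (115 to 162) with the first promoter anchor and 82 (65.2 to 102) with the second. These 2 partners together held 38.7% of the GATA3 read pairs. Between 200 and 800 kb downstream there were 6 partners with 52 read pairs in all, whereas between 800 and 1300 kb there were 18 with 541, or 50.9% of the read pairs of the gene. Downstream partners held 92.5% of the read pairs that left the promoter.

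**Figure D2:**
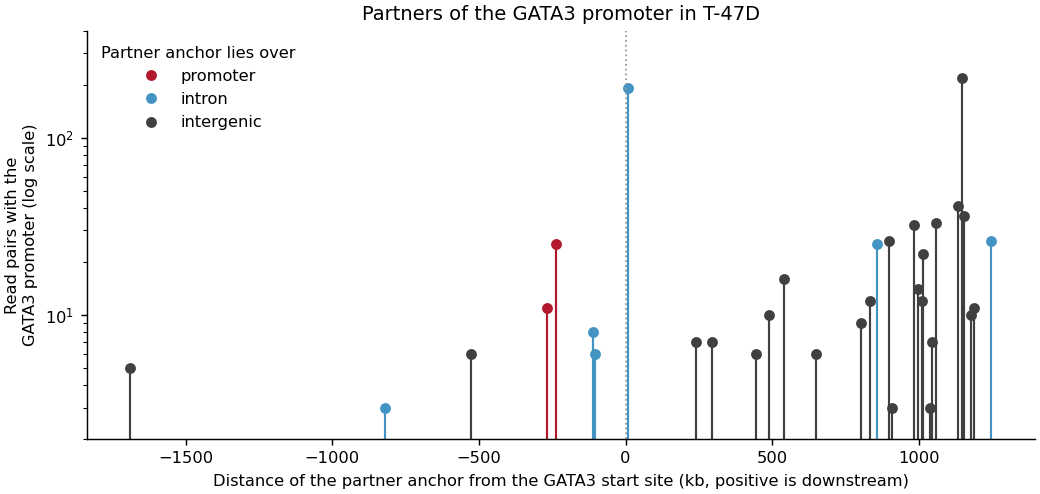
Read pairs between the GATA3 promoter and each partner anchor in T-47D (log scale, summed over both promoter anchors) against distance from the canonical start site in kb; colours give what the partner lies over. The intron anchor at 7.71 kb (192 read pairs) and the intergenic anchor at 1146 kb (219 read pairs) stand above the rest, and 18 partners lie between 800 and 1300 kb downstream.

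The anchor at 1146 kb lies 70.5 kb from the nearest annotated gene of any kind and 1121 kb from the nearest protein-coding gene, which is GATA3. It had 28 partners and 818 read pairs, rank 10 by read pairs and 26 by partners among the 9872 T-47D anchors that hold no protein-coding promoter. After the promoter anchors its strongest partners were both flanking anchors, chr10:9249945-9251667 with 68 read pairs (52.8 to 86.2) and chr10:9229099-9230553 with 64 (49.3 to 81.7). Anchors at chr10:8991815-8995995 and chr10:9075589-9082880 followed with 52 read pairs each (38.8 to 68.2). The flanking anchors were themselves joined to the GATA3 promoter, by 36 and 41 read pairs.

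Windows of 300 bases from the anchors with the most GATA3 and GATA2 contacts are shown because they hold the most matches, within each anchor, of motifs set for this description: the GATA motif (AGATAA or AGATAG or TGATAA or TGATAG), the forkhead motif (TGTTTAC or TGTTTGC) and the full estrogen response element (GGTCA and TGACC separated by 3 bases), on both strands. Matches are in capitals. The windows come from the GRCh37 genome, plus strand, outside annotated exons. The first lies in the anchor 1146 kb downstream of GATA3 (chr10:9242677-9242976) and holds 3 GATA matches. The next lies in the flanking anchor 1133 kb downstream (chr10:9229591-9229890) and also holds 3. The window of the GATA3 intron anchor (chr10:8103476-8103775) holds 1 GATA and 1 forkhead match, and that of the strongest distal partner of GATA2 in LNCaP (chr3:128096648-128096947), within an intron of EEFSEC, holds 3 GATA matches.
GATA3, 1146 kb downstream: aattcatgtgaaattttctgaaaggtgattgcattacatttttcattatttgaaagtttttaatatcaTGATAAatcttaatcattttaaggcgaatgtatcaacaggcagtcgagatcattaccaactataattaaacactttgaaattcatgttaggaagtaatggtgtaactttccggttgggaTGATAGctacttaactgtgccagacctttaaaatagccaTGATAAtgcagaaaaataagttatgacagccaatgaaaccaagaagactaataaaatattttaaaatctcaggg
GATA3, 1133 kb downstream: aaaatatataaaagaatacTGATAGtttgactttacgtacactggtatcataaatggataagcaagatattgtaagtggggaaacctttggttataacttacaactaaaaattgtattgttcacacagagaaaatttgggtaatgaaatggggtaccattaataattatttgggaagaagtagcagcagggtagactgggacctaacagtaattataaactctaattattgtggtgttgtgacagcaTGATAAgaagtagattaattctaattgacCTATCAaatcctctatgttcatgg
GATA3, intron: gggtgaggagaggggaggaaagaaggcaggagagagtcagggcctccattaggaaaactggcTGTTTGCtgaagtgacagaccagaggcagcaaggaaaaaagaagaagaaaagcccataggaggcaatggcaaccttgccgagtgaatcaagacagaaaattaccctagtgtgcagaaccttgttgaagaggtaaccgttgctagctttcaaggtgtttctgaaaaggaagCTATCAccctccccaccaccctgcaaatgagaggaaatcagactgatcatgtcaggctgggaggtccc
GATA2, EEFSEC intron: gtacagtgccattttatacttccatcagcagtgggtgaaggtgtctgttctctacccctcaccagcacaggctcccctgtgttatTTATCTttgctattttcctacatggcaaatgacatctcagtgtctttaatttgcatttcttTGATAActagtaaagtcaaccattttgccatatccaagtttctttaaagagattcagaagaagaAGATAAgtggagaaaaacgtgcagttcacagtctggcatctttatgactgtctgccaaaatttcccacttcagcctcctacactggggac

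Such windows are not rare. Of 82152 windows of this length tiled over the T-47D distal anchors, 39% held a GATA match and 10.3% a forkhead match, and 4.16% held 3 or more matches of any kind. In the LNCaP distal anchors these shares were 48.3%, 12% and 6.47% of 344324 windows. The printed windows were each picked from all positions of an anchor, so these shares of fixed windows make them look rarer than they are. The share of anchors whose best window holds as many matches was not computed. The 30 distal anchors linked to GATA3 in T-47D held 2.75 GATA matches per kb, against 1.86 in all 9872 distal anchors of the list, and 0.468 against 0.375 forkhead matches per kb. Their base composition differed too, at 37.7% G or C against 45.7%. The 25 distal anchors linked to GATA2 in LNCaP went the other way, with 1.65 GATA matches per kb against 2.41 and 49.2% G or C against 41.1%. The part of base composition in these densities was not tested. No full estrogen response element was found in either linked set, and 0.709% of the T-47D distal anchors held one. These are matches of letters and not binding sites.

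The read pairs of the longest GATA3 loops, for their span, set them apart within their own list. Of 341 T-47D loops spanning 1 to 1.3 Mb, the median had 3 read pairs and the 99th percentile was 27. Of the 10 strongest, 9 lay within chromosome 10 from 8 to 10 Mb, and outside that segment the strongest had 14 read pairs. Of 896 T-47D loops over 1 Mb, 21 started at the GATA3 promoter, and they held 425 of 4015 read pairs. Loops of 1 to 2 Mb made up 0.230% of the Ishikawa list, 1.57% of the T-47D list and 2.45% of the LNCaP list, so long loops as such were present in every line.

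**Figure D3:**
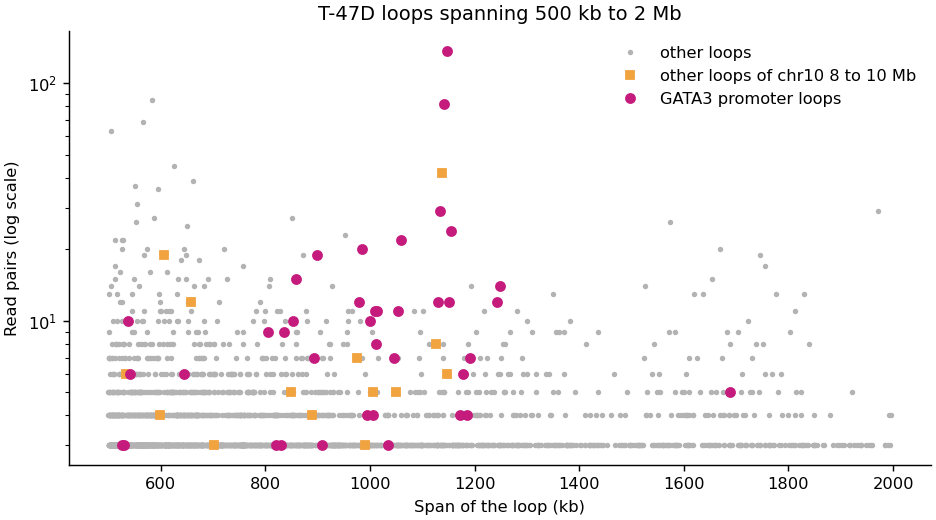
Span in kb against read pairs (log scale) for T-47D loops spanning 500 kb to 2 Mb; loops of the GATA3 promoter, other loops within chromosome 10 from 8 to 10 Mb and the other loops of the list are marked apart. Both loops from the GATA3 promoter to the anchor 1146 kb downstream, with 137 and 82 read pairs, are the strongest beyond 1 Mb in this range.

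Upstream of GATA3, 7 partners held 64 read pairs. The promoter of TAF3, which encodes a subunit of the general transcription factor TFIID, shared 25 read pairs, and the anchor over the promoters of ATP5F1C, a subunit of the mitochondrial ATP synthase, and KIN, a DNA and RNA binding protein, shared 11. These 3 genes were the ones whose promoters were joined to GATA3. The farthest partner, at chr10:6404041-6408895, lay 1690 kb upstream with 5 read pairs. Of the 30 distal anchors linked to GATA3, 21 were linked to no other protein-coding gene, and ATP5F1C and KIN shared the most, 6 anchors each. By number of linked distal anchors GATA3 ranked 4 among protein-coding genes in T-47D.

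Within chromosome 10 from 8 to 10 Mb the lists differed in number, length and arrangement of loops. T-47D had 154 loops with 2144 read pairs (2054 to 2237) over 29 anchors, Ishikawa 51 loops with 270 (239 to 304) over 48 anchors, and LNCaP 3 loops with 12 (6.20 to 21.0) over 5 anchors. Per 100000 read pairs these were 610, 26.0 and 0.665. The density was 77 loops per Mb in T-47D against 13.6 over its whole genome, 25.5 against 52.8 in Ishikawa and 1.5 against 48.2 in LNCaP. The median span within the segment was 264 kb in T-47D, 21.8 kb in Ishikawa and 6.2 kb in LNCaP, where it rests on 3 loops. Over the whole lists the median spans were 85.8, 37.0 and 113 kb. GENCODE places 2 protein-coding genes in it, TAF3 at its edge and GATA3.

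In T-47D, 46 of these loops with 999 read pairs had an end at the GATA3 promoter, and 108 with 1145 read pairs did not. Beyond GATA3 there were 26 anchors, of which 24 were joined to the GATA3 promoter. Of the 325 pairs they form, 97 (29.8%) were joined to each other, with 1051 read pairs. Of the 26, 18 lay between 800 and 1300 kb downstream of the start site. Of these 26 anchors, 5 overlapped an Ishikawa anchor and 0 a LNCaP anchor, where 39.2% and 39.0% of all 9872 T-47D distal anchors did.

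**Figure D4:**
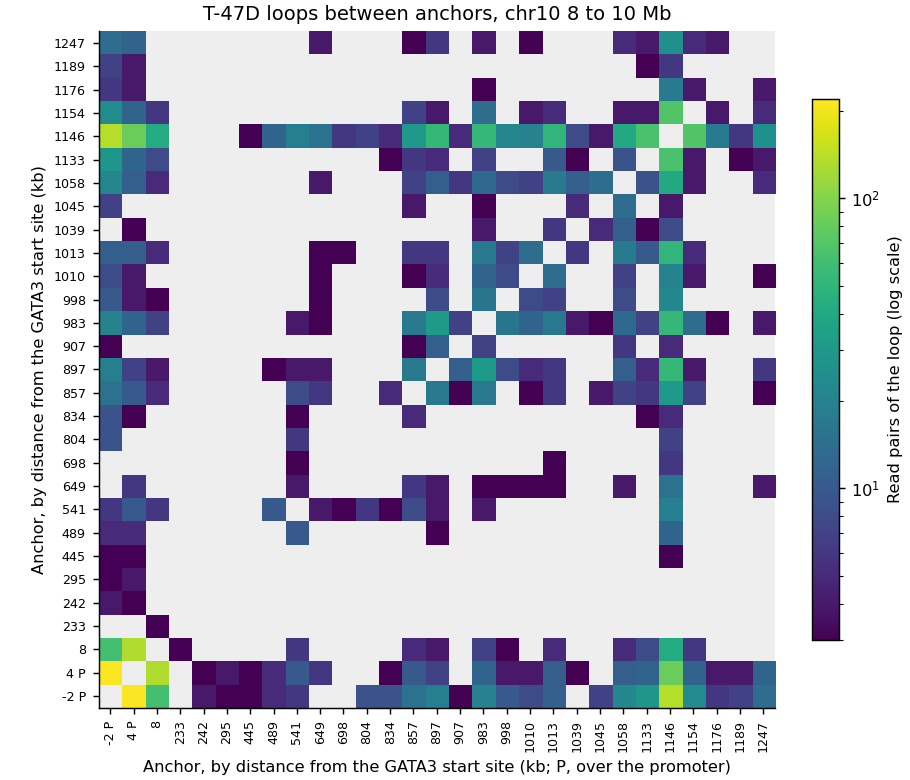
Read pairs (colour, log scale) of T-47D loops between the 29 anchors of chromosome 10 from 8 to 10 Mb, ordered and labelled by distance from the canonical GATA3 start site in kb (P, over the GATA3 promoter); grey cells have no loop. The rows of both promoter anchors and of the anchor at 1146 kb are filled for most anchors, and many pairs of anchors from 857 kb on are joined to each other.

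In Ishikawa the same segment held short loops between neighbouring anchors. The strongest, between chr10:8150992-8159004 and chr10:8160769-8165893, had 24 read pairs and spanned 8.33 kb. Only 7 of the 51 loops spanned more than 100 kb, the longest 443 kb with 3 read pairs, and 0 crossed the position 9 Mb. The Ishikawa list consists of 4 parts with no sample names, and 18 of these loops occurred in 2 or more parts. In LNCaP the 3 loops had 6, 3 and 3 read pairs and lay on both sides of GATA3, none of them more than 100 kb from its start site. Of 6 other protein-coding genes within 1 Mb of GATA3, 3 looped in LNCaP. Per 100000 read pairs, KIN stood at 5.21 in LNCaP, 13.9 in T-47D and 1.06 in Ishikawa, ATP5F1C at 5.04, 13.9 and 1.15, and TAF3 at 1.88, 15.9 and 0.673. All 3 were highest in T-47D, but the share of all genes highest there was not computed. KIN and ATP5F1C share a T-47D anchor, so they are not separate cases. The T-47D counts include read pairs with the GATA3 promoter, 25 of 56 for TAF3 and 11 of 49 for KIN and for ATP5F1C. The others, SFMBT2, ITIH5 and ITIH2, had 0 in LNCaP. SFMBT2 had 5 read pairs in T-47D alone, and ITIH5 and ITIH2 had 13 and 24 in Ishikawa alone.

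GATA2 (ENSG00000179348.13_12, chromosome 3, 128198270 to 128212044, minus strand) has 10 annotated start sites. The LNCaP anchor over them, chr3:128201393-128213577, covered 8, the canonical site at 128212044 among them. In T-47D the anchor chr3:128206365-128209781 covered 4 internal sites and not the canonical one. In Ishikawa 2 anchors covered 4 sites each, chr3:128206319-128209783 with 7 read pairs and chr3:128210372-128217482, over the canonical site, with 34.

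The LNCaP loops of GATA2 ran past its 3′ end into EEFSEC, the gene of a selenocysteine-specific elongation factor, which lies between 127872324 and 128127489. Of 1039 read pairs, 992 (95.5%) were downstream. Of 35 partners, 17 overlapped EEFSEC and held 839 read pairs (80.8%). The strongest was chr3:128052395-128070783, an anchor over an internal EEFSEC start site 150 kb downstream, with 246 read pairs (216 to 279). It was followed by chr3:128095559-128106303, in an EEFSEC intron 111 kb downstream, with 214 (186 to 245). Together they held 44.3% of the read pairs, and 16 partners had fewer than 10 each. Farther on, the promoters of RUVBL1 (an ATPase of chromatin remodelling complexes), SEC61A1 (a subunit of the protein translocation channel) and MGLL (monoglyceride lipase) were joined to GATA2, and upstream those of RPN1, RAB7A and ACAD9. The farthest partner was the anchor over MCM2 and TPRA1, 895 kb downstream with 3 read pairs.

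Anchors over EEFSEC start sites, the internal one included, had 1572 read pairs in LNCaP, more than GATA2. That count includes the 246 and 28 read pairs that 2 of these anchors shared with the GATA2 promoter. All 25 distal anchors linked to GATA2 in LNCaP were also linked to another protein-coding gene, and 23 of them to EEFSEC. This differs from GATA3 in T-47D, where 9 of 30 were shared. A test of that difference was not made, since each gene was read in 1 list. Over 26 other protein-coding genes within 1 Mb of GATA2 the median in LNCaP was 92.5 read pairs, with 21 genes above 0.

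In T-47D, 7 of 9 GATA2 loops (77.8%) had a counterpart in LNCaP with both anchors overlapping, where 38.9% of all T-47D loops had one. In the other direction 7 of 35 LNCaP loops (20%) had one in T-47D, where 10.3% of all LNCaP loops did. These shares rest on few loops, and the LNCaP promoter anchor is wider than that of T-47D. The strongest in T-47D, to the intergenic anchor chr3:128153328-128155333, 57.7 kb downstream, had 9 read pairs, and its LNCaP counterpart had 27, which is 2.6 and 1.5 per 100000. The partner over the internal EEFSEC start site had 5 read pairs in T-47D, or 1.42 per 100000 against 13.6 in LNCaP. That partner anchor was 2938 bases wide in T-47D and 18389 in LNCaP, and the shares are not scaled for width. The 2 other partners, at chr3:128124097-128126175 with 5 read pairs and chr3:128129337-128132288 with 3, had no LNCaP counterpart. In Ishikawa the strongest partner was instead upstream, chr3:128251594-128259676, 43.6 kb before the start with 11 read pairs in 3 parts of the list, and 2 of 10 loops (20%) matched a LNCaP loop, against 5.25% of all Ishikawa loops. Of the 10 Ishikawa loops, 9 occurred in 1 part, so those rest on few reads.

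**Figure D5:**
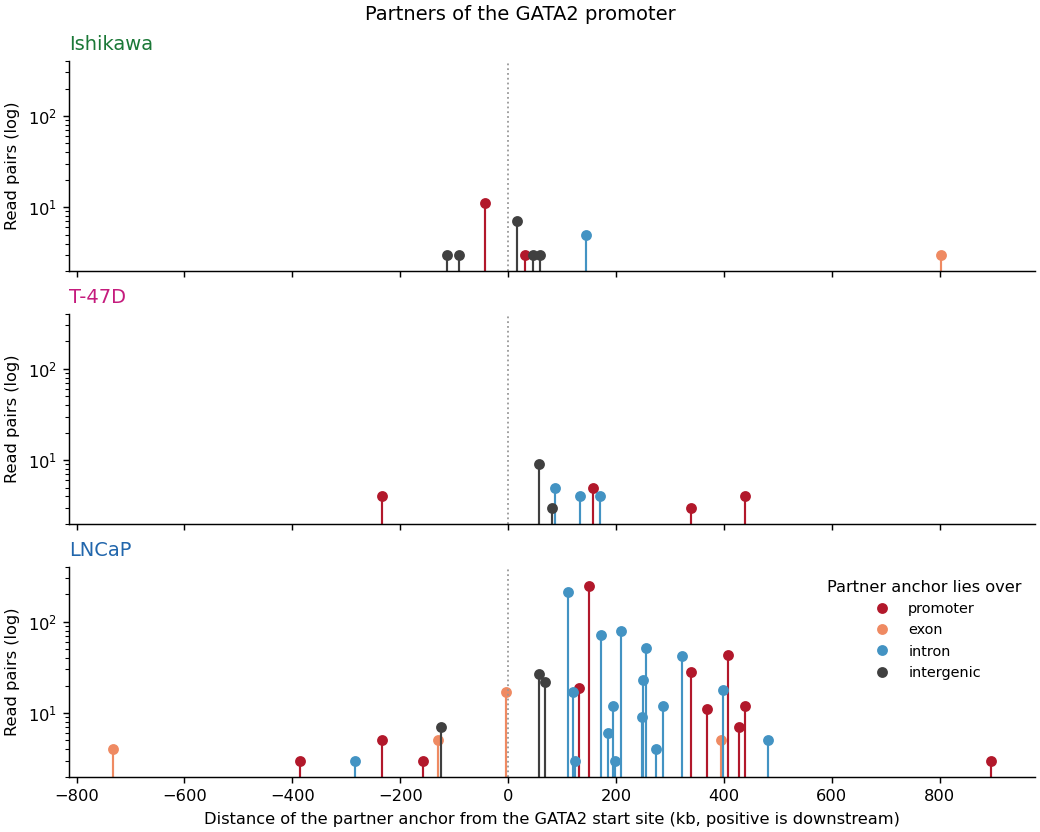
Read pairs (log scale) between the GATA2 promoter and each partner anchor against distance from the canonical start site in kb, in Ishikawa (top), T-47D (middle) and LNCaP (bottom). LNCaP partners gather 50 to 450 kb downstream with up to 246 read pairs, and no partner in the other lists exceeds 11; counts are not scaled for depth.

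GATA6 (chromosome 18, 19749550 to 19782491, plus strand) had 7 Ishikawa loops, all to anchors linked to no other protein-coding gene. The strongest partner, chr18:19777254-19781140, lay at the 3′ end of GATA6, 29.6 kb downstream, with 10 read pairs (4.80 to 18.4), and intergenic anchors 71.4 and 62.1 kb downstream had 6 and 5. The farthest lay 190 kb upstream, over the promoter of the non-coding gene LINC01900, with 3. Of the 7 loops 2 occurred in more than 1 part. In T-47D the GATA6 loops were 2, each of 3 read pairs, to anchors 26.3 kb upstream and 297 kb downstream. No LNCaP anchor lay within 123 kb of a GATA6 start site. Of 9 neighbouring genes within 1 Mb, 7 had loops in that list, where 43.6% of all protein-coding genes had fewer than 4 promoter read pairs.

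GATA5 (chromosome 20, 61038553 to 61051051, minus strand) looped in T-47D to an intergenic anchor 14.7 kb downstream with 6 read pairs, and to the promoters of CABLES2 and RBBP8NL with 4 each and of MRGBP with 3. These counts were near the list's minimum. The nearest anchors to its start site lay 23.9 kb away in Ishikawa and 17.4 kb away in LNCaP.

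GATA4 (chromosome 8, 11534468 to 11617511, plus strand) had no anchor over any of its 8 start sites. Anchors within the gene body did loop, with 29 loops and 172 read pairs for Ishikawa, 12 and 87 for T-47D, and 3 and 13 for LNCaP. Per 100000 these read pairs were 16.5, 24.8 and 0.720. The Ishikawa anchor nearest to a start site was 1.90 kb away. The neighbouring gene FDFT1, squalene synthase, had 119, 35 and 206 promoter read pairs in Ishikawa, T-47D and LNCaP, near equal as shares, at 11.4, 9.96 and 11.4 per 100000.

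Other proteins with a GATA-type zinc finger and partners of GATA factors were examined beside the members. Of 10 relatives, 9 had promoter loops in Ishikawa and 8 in each other list. TRPS1, a repressor that binds GATA sites, had 2557 read pairs in T-47D against 3 for Ishikawa and 4 for LNCaP, and GATAD2B, a subunit of the NuRD complex, had 85, 25 and 96, or 24.2, 2.40 and 5.32 per 100000. Of 9 relatives with a loop in any list, these 2 were 4-fold or more higher in T-47D than in both other lists, against 10.9% of all genes with a loop in any list. RERE, a nuclear receptor coregulator, whose LNCaP promoter loops held 3484 read pairs against 52 for T-47D and 38 for Ishikawa, was the 1 of 9 so placed for LNCaP, against 7.03%. ZGLP1, with 60 in Ishikawa and 0 in the other lists, was the 1 for Ishikawa, against 8.54%. GATA1, the founding member known from red blood cells, had no loop in any list.

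Of 8 partners, 7 had a loop in some list, and 1 of them, ZFPM2, which encodes the cofactor FOG2, was 4-fold or more higher in T-47D than in both other lists, a share near the 10.9% over genes given above. It had 18 read pairs against 7 in LNCaP and 0 in Ishikawa. FOXA1 had 6348 read pairs in LNCaP and 908 in T-47D, or 352 and 258 per 100000, but none in Ishikawa. ESR1, the estrogen receptor gene, had 299 in Ishikawa, 195 for T-47D and 8 for LNCaP, so that its share was highest in T-47D, at 55.5 per 100000 against 28.7 and 0.443. By percentile within the list, 3 of the 7 were highest in Ishikawa and 2 in each other list. TAL1, a blood cell partner, had 0 in every list.

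Genes closest to GATA3 in their pattern of log2 shares over the 3 lists, with shares under 3 read pairs set to that minimum, were BMPER (Euclidean distance 0.38), PRLR (1.36), EDN1 (1.48), TYRP1 (1.59) and PGR (1.60). In T-47D they had 1155, 705, 594, 524 and 517 read pairs, and each had 9 or fewer in Ishikawa and 0 in LNCaP. Genes closest to GATA2 were ATP5F1D (0.46), ERGIC1 (0.52), SUPT5H (0.55), ARID5B (0.61) and CTBP1 (0.62), with 686 to 1097 read pairs in LNCaP. Distance was measured over 3 lists of unequal depth and is a description.

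As a check of the labels, 4 LNCaP genes (KLK3, KLK2, TMPRSS2 and HOXB13) had their highest percentile of promoter read pairs in LNCaP in 4 of 4 cases, and 4 Ishikawa genes (PAX8, SOX17, EMX2 and HOXA11) in Ishikawa in 3 cases, HOXA11 having no loop. KLK3 and KLK2 had equal values in LNCaP, 2936 read pairs and 15 linked distal anchors, so they should not be read as separate cases. Of 5 T-47D genes, TRPS1 and PGR were highest in T-47D, ESR1 in Ishikawa (percentile 99.1 against 98.4 in T-47D, although its share was higher in T-47D), and TFF1 and XBP1 in LNCaP with no T-47D loop.

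Some values rest on the definitions. With 1 start site per gene, the most 5′ annotated end, GATA3 had 0 read pairs in T-47D and GATA2 had 0 in T-47D, since those anchors lie over other start sites. Thinned to the 351260 read pairs of the T-47D list, GATA2 in LNCaP had an expected 185 read pairs and 11.9 linked distal anchors.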

How the data were processed

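The authors aligned H3K27ac HiChIP reads to hg19 with HiC-Pro, called loops with hichipper, dropped loops with fewer than 3 reads or a high false discovery rate, and combined samples and treatments. The deposited value of a loop is a raw read pair count, not scaled for depth. Rows joining the same anchors were summed over the 4 unnamed parts of the Ishikawa list. Pairs of an anchor with itself were set aside. LNCaP spans ran from 5 kb to 2.00 Mb, the other lists were not so limited.

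Start sites came from GENCODE (version lifted to GRCh37). An anchor was distal where it overlapped no start site window of a protein-coding gene. Shares were compared as ratios with exact conditional binomial intervals, a called ratio being 4 or more with counts under 3 set to 3. Windows shown as sequence were the middle of the first run of positions with the most motif matches. Members and lists were chosen with earlier results of these data known. Named genes are the members, their 10 strongest and farthest partners, joined genes, the 5 nearest patterns, relatives, partners, neighbours within 1 Mb and cell line markers. Some genes of these lists are not reported here. The counting was tested on simulated loops, and 124 of 124 genes were recovered exactly. Each such gene had a single promoter anchor, partners clear of protein-coding promoters and no other chosen gene close by. Genes with several promoter anchors, wide anchors or shared partners were not simulated. Alternatives were other minima, thinning, promoter windows, start sites, spans, anchor widths, a stricter distal definition, repeated Ishikawa loops and self-pairs. Python 3.11.15, numpy 2.4.6, pandas 2.3.3, scipy 1.17.1 and matplotlib 3.10.9 were used.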

Additional observations from a re-analysis of the deposited data

Results flagged for a closer look

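Pairs of an anchor with itself lie outside the loops counted above, and some were found at the members' promoters. They were picked out because such pairs exceeded 3 read pairs at an anchor over a member's start site. In T-47D the first GATA3 promoter anchor was joined to itself by 261 read pairs and the second by 137, and the GATA2 anchor by 26 and the GATA6 anchor by 6. In Ishikawa the GATA6 anchor had 7. Among T-47D anchors with any self-pair the median was 12. The anchor 1146 kb beyond GATA3 had 430, more than either GATA3 promoter anchor. It was also wider, at 8909 bases against 7189 and 3008, and the median T-47D anchor was 2.61 kb wide. These self-pair counts are not scaled for width. The LNCaP list held no self-pairs, so its GATA2 anchor has no value of this kind.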

How the results depend on the processing

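Of 43 values computed for GATA3 in T-47D, GATA2 in LNCaP and the T-47D loops of chromosome 10 from 8 to 10 Mb, 15 moved, by more than the counting interval for read pairs or 1.5-fold for loops and anchors. GATA3 in T-47D went from 1063 read pairs to 991 with a minimum of 5 read pairs, 895 with 10, 232 with spans of 20 kb to 1 Mb, 1461 with self-pairs and 0 with 1 start site. An alternative chosen after seeing the data, spans of 5 kb to 2 Mb in each list, gave 932. Its linked distal anchors went from 30 to 12 with a minimum of 10, 17 with spans of 20 kb to 1 Mb and 0 with 1 start site. GATA2 in LNCaP went from 1039 read pairs to 964 with a minimum of 10, 793 without anchors of 15 kb or more and 185 after thinning, and its linked distal anchors from 25 to 14 with a minimum of 10 and 11.9 after thinning. The loops of the chromosome 10 segment in T-47D went from 154 to 53 with a minimum of 10. The fall under a higher minimum or thinning follows from dropping loops, and that under 1 start site from the anchors lying over other sites. Of 133 values for the other members, lists and segments above 0, 45 moved. GATA3 in Ishikawa was 0 when an anchor had to cover a start base, which was also chosen after seeing the data. The 14 values at 0 stayed at 0 in the alternatives run. Only the 2 kb promoter window could have raised them, since the other alternatives add no promoter anchor. No paired analysis was possible because each line has 1 combined list. For the same reason no replicate could be left out.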
